A study of Mus musculus with 18 samples.

Results

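The response of hearts without Sesn2 to ischaemia and reperfusion (IR) was described by comparing 3 Sesn2-knockout (Sesn2-KO) hearts taken after IR with 3 Sesn2-KO hearts taken after sham surgery. These 6 libraries were chosen by their labels, out of 18 libraries of mouse left ventricle in the series. The 6 mice were Sesn2-KO animals on the C57BL/6 background, 3 to 4 months old, bred in the authors' own colony. For IR, the left anterior descending coronary artery was tied for 45 min under anaesthesia and ventilation, and blood flow was then restored for 24 h. Sham mice had the same anaesthesia, ventilation and chest opening with the artery left free, so both groups carried the knockout and the surgery. Young wild-type (WT) hearts of the same age and aged WT hearts (24 to 26 months), bought from suppliers and taken after the same 2 treatments, entered the analysis to estimate the spread and to test whether responses differed. The labels used here do not give the making of the knockout allele, nor the sex or litter of the mice.

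Sesn2 encodes sestrin 2, a stress-induced protein that binds the GATOR complexes upstream of mTORC1 and is known to support the activity of AMPK, the energy sensor of the cell. The adult heart draws most of its energy from fatty acid oxidation in mitochondria, with glucose, lactate, ketone bodies and branched-chain amino acids as further fuels. After reperfusion, injured muscle is known to release chemokines that draw in neutrophils and then monocytes, and fibroblasts begin to lay down new matrix.

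Each of the 6 libraries held 9860901 (IR 1) to 13820734 (sham 3) counts assigned to genes. Levels of Sesn2 (chromosome 4, 132492032 to 132510501, GRCm38) in CPM (reads of a gene scaled to a common library size, with TMM factors) were 0, 0.149 and 0.37 in the sham hearts and 0.301, 0.322 and 0.0708 in the IR hearts. The young WT means were 3.88 CPM after sham and 3.66 CPM after IR, above every knockout heart. Sesn2 levels thus followed the genotype labels.

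The 6 hearts did not separate cleanly by treatment. The root mean square difference of log2 CPM over 10989 genes was 0.257 between sham 1 and sham 2, 0.313 between sham 1 and IR 1, and 0.307 between sham 2 and IR 1. Pairs within the IR group differed by 0.332 to 0.508, and the widest pair of all, sham 3 and IR 1, differed by 0.546. On the first principal component (46.7% of the variance) sham 1, sham 2 and IR 1 lay on one side at -13.8, -19.1 and -23.8, and sham 3, IR 2 and IR 3 lay on the other at 16.5, 12.7 and 27.5. The second component (35.2%) ran from 26.8 in sham 3 to -27 in IR 2. On it the sham hearts lay at 3.1 or higher and the IR hearts at -3.6 or lower. In sham 3 and IR 3, deviations from the group mean went with transcript length (rank correlations across genes of 0.445 and 0.421), while in the other 4 hearts the correlation was negative. Deviations within a group cancel out by construction, so the negative signs are not a separate result. Among the named genes that varied most between hearts, Zbtb16, a zinc-finger transcription factor, was at 12.5, 16.3 and 113 CPM in the sham hearts and at 8.72, 10.8 and 69.1 CPM in the IR hearts, high in sham 3 and IR 3. The muscarinic receptor gene Chrm2 had the same order, with 65.6 CPM in sham 3, 43.5 CPM in IR 3 and 4.71 to 7.9 CPM in the other hearts. A length covariate was made from the slope of these deviations on transcript length in each library. It too cancels out within each group, so it could not adjust for a length difference between sham and IR. With this covariate in the fit no gene was called (smallest adjusted p 0.0586), and 3291 genes had an unadjusted p below 0.05.

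**Figure D1:**
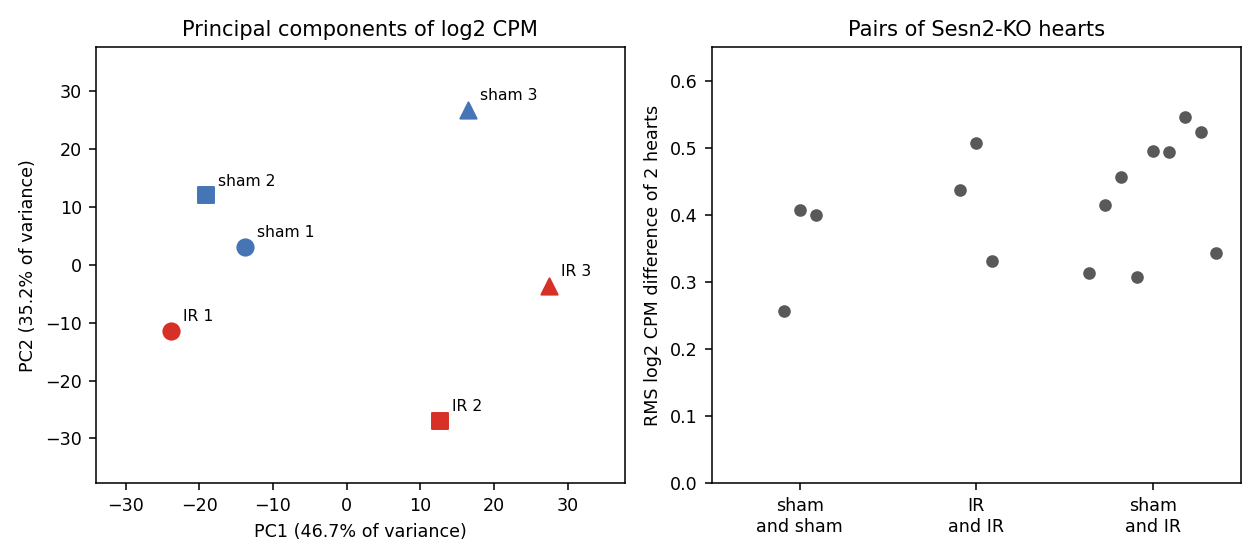
Left, the 6 Sesn2-KO hearts on the first 2 principal components of log2 CPM, with sham hearts in blue and IR hearts in red. Right, the root mean square difference of log2 CPM for every pair of these hearts, by kind of pair; sham and IR pairs ran from 0.307 to 0.546 and pairs of 2 sham hearts from 0.257 to 0.407.

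No gene passed an adjusted p below 0.05 between IR and sham in the Sesn2-KO hearts (0 of 13859 genes, 0%, by edgeR's quasi-likelihood test, smallest adjusted p 0.197). At an unadjusted p below 0.05 there were 2037 genes (14.7%), of which 1134 were higher (8.18%) and 903 lower after IR (6.52%). CPM ranges of the 2 groups did not overlap for 1388 genes that were higher (10%) and 1060 that were lower (7.65%). Over all tested genes 49.3% had a positive log2 fold change. Among the 10989 genes averaging 5 CPM or more, the median size of the log2 fold change was 0.163, close to the median standard error of 0.165. More than 2-fold differences were seen for 100 genes that were higher and 21 that were lower. Other tools called genes from the same counts: DESeq2's Wald test called 129 (75 higher, 54 lower) and limma voom, which gave IR 1 and sham 3 weights of 0.399 and 0.425 against 0.626 to 1.7 for the other Sesn2-KO hearts, called 1235 (715 higher, 520 lower). Without IR 1, edgeR called 1 gene, Sdc1, which encodes the cell-surface proteoglycan syndecan 1 and was named after its values were seen. Sdc1 was at 10.9, 10.4 and 11.6 CPM in the sham hearts and 18.6, 28.6 and 31.7 CPM in the IR hearts. Its log2 fold change was 1.26 ± 0.22 (standard error, used after ± from here on unless SD is written) with all hearts (adjusted p = 0.197) and 1.46 ± 0.2 without IR 1 (adjusted p = 0.0416). Without IR 2 the unadjusted count was 937, and all counts of list members below use unadjusted p-values below 0.05 and are to be read against the shares of 8.18% and 6.52%. Counts with a heart left out have shares of their own, higher and lower in turn: 7.02% and 6.96% without sham 1, 5.8% and 5.33% without sham 2, 6.57% and 4.38% without sham 3, 10.6% and 10.2% without IR 1, 3.94% and 2.76% without IR 2, and 7.08% and 7.38% without IR 3. With sham 3 and IR 3 left out together, the unadjusted count was 1141 (4.4% higher and 3.76% lower), and the list counts that moved by more than 1.5 times were 1 acute-phase gene, 0 ketone body genes, 9 cytokines, 10 matrix genes, 6 fatty acid genes, 1 stress response gene, 4 immediate early genes, 5 contraction genes, 1 cell cycle gene, 6 macrophage markers, 1 smooth muscle marker and 2 atrial markers.

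Cytokine and chemokine genes were mostly on the higher side. Of 31 acute cytokines and chemokines, 28 were tested, and 14 of these were higher at an unadjusted p below 0.05 and none lower. Their median log2 fold change was 0.76 and 27 of 28 were positive. Without sham 2 the count was 9 and without IR 2 it was 8. Ccl2, the main chemokine for monocytes (chromosome 11, 82035571 to 82037453), was at 11.8, 21.7 and 22.7 CPM in the sham hearts and at 36.5, 53.9 and 57.2 CPM in the IR hearts. The ranges did not overlap, and the log2 fold change was 1.39 ± 0.3 (adjusted p = 0.197). Its neighbour Ccl7, another monocyte chemokine, was at 18.7, 29.7 and 32.5 CPM against 55.3, 61 and 59.2 CPM, again without overlap (1.12 ± 0.3, adjusted p = 0.202). Both genes passed the threshold in DESeq2 and in voom. Il6, a cytokine that drives the acute-phase response, was at 1.89, 1.27 and 2.22 CPM after sham and 2.2, 5.95 and 5.1 CPM after IR (1.31 ± 0.48, adjusted p = 0.239). IR 1 fell within the sham range for Il6. IR 1 was also the lowest IR heart for Ccl2 and Ccl7. Il1b, the interleukin released after inflammasome cleavage, was at 5.67, 4.92 and 3.63 CPM after sham and 6.31, 17.9 and 6.02 CPM after IR, with IR 2 standing above the rest (1.09 ± 0.51, adjusted p = 0.334). Tgfb1, which encodes a growth factor of scar formation, was at 31.2 to 37.2 CPM after sham and 43.8 to 51.9 CPM after IR (0.43 ± 0.12, adjusted p = 0.202).

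Receptors for these signals were higher too. Of 24 cytokine and chemokine receptors tested, 12 were higher and 1 was lower, with a median log2 fold change of 0.5. The 13 became 8 without sham 2 and 8 without IR 2. Csf2rb, the shared receptor chain of GM-CSF, IL-3 and IL-5, was at 8.06, 8.64 and 9.63 CPM after sham and 14.7, 22.4 and 12.4 CPM after IR (0.91 ± 0.23, adjusted p = 0.199). Il1rap, the co-receptor of interleukin 1, was at 7.41 to 7.75 CPM after sham and 10.1 to 12.4 CPM after IR (0.54 ± 0.13, adjusted p = 0.199), a small difference with a narrow spread. Il4ra, the IL-4 receptor chain, was at 54.2 to 74.6 CPM and 79 to 127 CPM (0.77 ± 0.22, adjusted p = 0.202).

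Of 23 targets and inhibitors of NF-kB and STAT3, 7 were higher, none was lower and the median was 0.19. The count was 4 without sham 1, 4 without sham 2 and 2 without IR 2. Selectin genes, whose products let leukocytes roll on activated vessel walls, were among the named members. Selp, which encodes P-selectin (chromosome 1, 164115264 to 164150026), was at 2.54, 2.31 and 3.33 CPM after sham and 6.11, 15.3 and 9.27 CPM after IR. All 3 IR hearts lay above all sham hearts, and the log2 fold change was 1.91 ± 0.41 (adjusted p = 0.197). Sele, which encodes E-selectin, was at 3.12 to 4.3 CPM and 4.71 to 8.85 CPM (1.03 ± 0.34, adjusted p = 0.214). Ptgs2, the inducible cyclooxygenase, overlapped between the groups: 4, 2.31 and 5.7 CPM after sham and 5.01, 14.2 and 12.1 CPM after IR (1.39 ± 0.5, adjusted p = 0.23).

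Markers of infiltrating cells moved with these genes, but the lists share members. The neutrophil markers Cxcr2 and Csf3r and the macrophage markers Ccr2, Csf1r and Cx3cr1 are also in the receptor list. Of 19 neutrophil markers, 15 were tested. All 15 had a positive log2 fold change (0.5 to 2.23, median 1.23) and 10 were higher, with non-overlapping ranges for 10. This count was 7 to 11 with any 1 Sesn2-KO heart left out. The summed level of the 18 markers present in the files was 105, 50.4 and 89 CPM in the sham hearts and 126, 232 and 142 CPM in the IR hearts, so the groups did not overlap. Young WT hearts had 9.77 to 14.9 CPM after sham and 88.7 to 170 CPM after IR. Slfn4, a schlafen gene of myeloid cells (chromosome 11, 83175186 to 83190216), was at 3.92, 3.5 and 5.7 CPM after sham and 15.4, 33.3 and 12.7 CPM after IR (2.23 ± 0.46, adjusted p = 0.197). Il1r2, the decoy receptor of interleukin 1, was at 0.894 to 1.48 CPM and 3.26 to 6.27 CPM (1.92 ± 0.44, adjusted p = 0.197). S100a8, a calprotectin subunit that makes up much of the neutrophil cytosol, overlapped: 25.8, 8.34 and 15.2 CPM after sham and 23, 40.8 and 23.9 CPM after IR (0.83 ± 0.43, adjusted p = 0.38). The granule genes Ngp, Camp and Ltf had 1 to 4 counts in each group of 3 hearts. In bulk tissue, more cells of a type and more RNA per cell cannot be told apart.

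Monocyte and macrophage markers also included higher members. Of 28 members, 10 were higher and none lower, with a median of 0.36, and the count was 5 without sham 3 and 5 without IR 2. Their summed level was 1200 to 1280 CPM in the sham hearts and 1390 to 1600 CPM in the IR hearts. Arg1, arginase 1 of injury-associated macrophages (chromosome 10, 24915221 to 24927484), was at 11.6, 7 and 8.37 CPM after sham and 22, 96.6 and 44.4 CPM after IR (2.6 ± 0.57, adjusted p = 0.197). Chil3, a chitinase-like protein of the same cells, was at 6.97 to 8.37 CPM after sham and 13.1, 47.3 and 24.2 CPM after IR (1.88 ± 0.58, adjusted p = 0.202). Both genes ordered the IR hearts as IR 1, IR 3, IR 2 from low to high. Msr1, the macrophage scavenger receptor, was at 19.7 to 24.4 CPM and 34.5 to 52.3 CPM (0.99 ± 0.27, adjusted p = 0.202). The chemokine receptor gene Cxcr6, known from T cells, was at 2.38 to 4.22 CPM after sham and 4.91, 19 and 14.9 CPM after IR (1.92 ± 0.71, adjusted p = 0.241). T and NK cell markers were at 8.74 to 13.9 CPM summed after sham and 8.21 to 19.5 CPM after IR, B cell markers at 3.7 to 7.63 CPM and 4.18 to 10.1 CPM, and none of their tested members passed an unadjusted p below 0.05. Endothelial markers (12 tested, median 0.01) and fibroblast markers (10 tested, median -0.01) overlapped in their summed levels, at 2210 to 3020 CPM and 2040 to 3330 CPM for the first and 3740 to 4620 CPM and 2740 to 5090 CPM for the second. The part of cell composition in the gene differences was not tested.

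**Figure D2:**
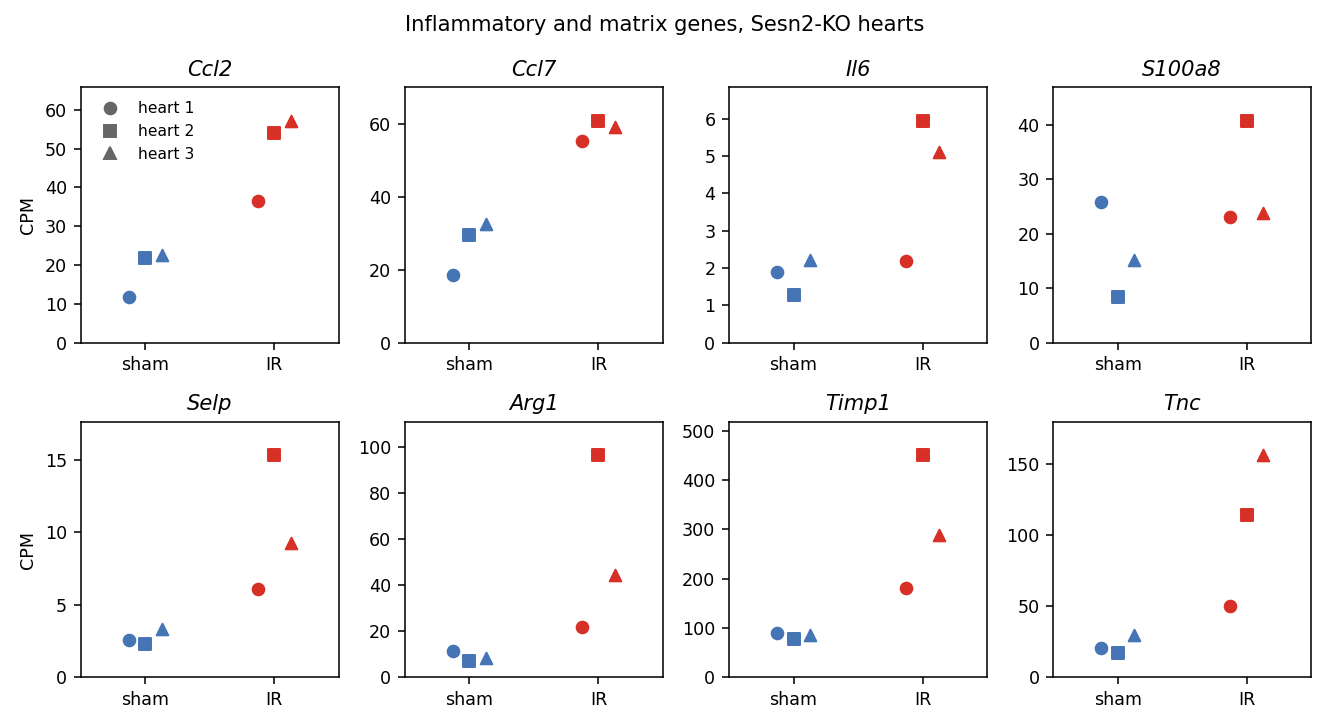
CPM of 8 inflammatory and matrix genes in each Sesn2-KO heart after sham (blue) or IR (red), with the replicate number given by the marker shape and each axis starting at 0. In Ccl2, Ccl7, Selp, Arg1, Timp1 and Tnc the groups did not overlap; in Il6 and S100a8 they did, and IR 1 was the lowest IR heart in all 8 genes.

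Other arms of innate immunity differed little. Of 9 tested acute-phase genes, 1 was higher (Ptx3, a soluble pattern receptor, 1.04 ± 0.32, adjusted p = 0.202) and 1 was lower (A2m, at 1.19 CPM or less in every heart), with a median of -0.12. Of 18 complement genes 1 was higher, C5ar1, the receptor of the C5a fragment, at 16.9 to 24.4 CPM after sham and 29 to 34.3 CPM after IR (0.62 ± 0.24, adjusted p = 0.259), and the count was 4 without IR 1 and 0 without IR 2. Of 30 interferon-response genes 1 was higher, Mx1, an antiviral GTPase, at 0.968 to 1.96 CPM and 2.41 to 4.82 CPM (1.23 ± 0.5, adjusted p = 0.273), and the count was 0 without sham 2, sham 3 or IR 2. The interferon list had a median of 0.19 in the knockout, -1.02 in young WT hearts, where 8 members fell (1.9% of all genes), and -0.54 in aged WT hearts. In the test of the difference from young WT, 17 of the 30 were more positive in the knockout at an unadjusted p below 0.05, against 2.22% of all genes, and none passed the adjusted threshold. These WT values rested on young WT sham 3, whose interferon genes summed to 7910 CPM, while young WT sham 1 and 2 had 785 and 994 CPM and there were 655 to 932 CPM in the 6 knockout hearts. Without that library the young WT median was -0.15, 1 member fell and 4 of 30 differed (1.59% of all genes). Aged WT sham 2 was also high, at 1930 CPM against 756 and 1080 CPM, and without it the aged WT median was -0.21. MHC class II genes gave a median of 0.12 in the knockout and -1.33 in young WT hearts, with 7 of 9 more positive in the knockout at an unadjusted p below 0.05 and none after adjustment. They summed to 1290 CPM in young WT sham 3 and to 454 and 644 CPM in sham 1 and 2, and without sham 3 the young WT median was -0.68 and 1 of 10 differed.

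The promoters of Selp and Slfn4 are shown because these were the members of the 10 highest named genes whose RefSeq window held the AP-1 motif TGANTCA, searched on both strands and marked in capitals. The window runs from 250 bases before the start site to 50 bases after it (GRCm38.p6).
Selp, chr1:164115014-164115313 (plus strand): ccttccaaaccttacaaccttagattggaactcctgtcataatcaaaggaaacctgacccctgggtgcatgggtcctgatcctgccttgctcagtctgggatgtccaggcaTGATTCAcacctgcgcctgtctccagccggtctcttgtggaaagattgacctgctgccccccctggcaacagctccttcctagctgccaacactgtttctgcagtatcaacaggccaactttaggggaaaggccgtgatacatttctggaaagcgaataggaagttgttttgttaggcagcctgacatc
Slfn4, chr11:83174936-83175235 (plus strand): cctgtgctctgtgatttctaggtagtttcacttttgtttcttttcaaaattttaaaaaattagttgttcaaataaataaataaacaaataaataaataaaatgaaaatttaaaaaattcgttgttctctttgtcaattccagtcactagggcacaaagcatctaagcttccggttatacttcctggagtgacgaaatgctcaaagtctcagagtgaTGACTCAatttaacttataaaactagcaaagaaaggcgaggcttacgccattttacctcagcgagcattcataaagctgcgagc
The match began 139 bases before the start site in Selp and 34 bases before it in Slfn4. Of the 10 highest named genes, 9 had a window and 2 held the motif. It was found in 6.5% of 10508 tested genes with a window and in 4 of 19 acute cytokine and chemokine genes (Il6, Lif, Il11 and Ccl9). Sets on the lower side held it as well, with 1 of 6 of the 10 lowest named genes and 11.1% of branched-chain amino acid genes. The share was 12.1% in respiratory chain genes, whose median log2 fold change was -0.08.

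Matrix genes lay on the higher side. Of 35 fibrillar matrix and remodelling genes, all tested, 17 were higher and 1 was lower, with a median of 0.62 and non-overlapping ranges for 15 that were higher. The 18 were 11 without sham 1, 11 without sham 2, 11 without IR 2 and 9 without IR 3. Tnc, which encodes tenascin C, a matrix protein of wound edges (chromosome 4, 63959785 to 64047015), was at 20.3, 17 and 29.6 CPM after sham and 49.9, 114 and 156 CPM after IR (2.26 ± 0.77, adjusted p = 0.219). Timp1, an inhibitor of matrix metalloproteinases (chromosome X, 20870166 to 20874735), was at 89.2, 76.6 and 86.5 CPM and at 180, 450 and 288 CPM. The sham hearts were tightly grouped in Timp1 and the IR hearts widely spread. Fbn1, which encodes the microfibril protein fibrillin 1, was at 104, 105 and 99.8 CPM after sham and 185, 198 and 185 CPM after IR, with little spread in either group (0.88 ± 0.22, adjusted p = 0.199). Col1a1, the main fibrillar collagen chain, overlapped between groups: 108, 150 and 192 CPM against 250, 158 and 203 CPM (0.44 ± 0.3, adjusted p = 0.511). Cnn1, a calponin of smooth muscle and myofibroblasts, was at 2.16 to 3.11 CPM and 5.61 to 12.4 CPM (1.93 ± 0.44, adjusted p = 0.197). Smooth muscle and pericyte markers as a list had a median of 0.05 and summed levels of 669 to 866 CPM after sham and 585 to 790 CPM after IR, with 5 of 10 at an unadjusted p below 0.05 (3 without sham 2, sham 3 or IR 2).

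Metabolic genes lay on the lower side. Of 30 genes of fatty acid uptake and beta oxidation, all tested, all 30 had a negative log2 fold change, from -1.27 to -0.16 with a median of -0.43. Acot1 and Cpt1b, both with uncertain counts as described below, are among the 30, and Acot1 set the lower end. At an unadjusted p below 0.05 15 were lower, and 11 had non-overlapping ranges. The count depended on single hearts: it was 1 without IR 2, 4 without sham 2, 4 without sham 3 and 9 without IR 3, while the median stayed between -0.54 and -0.31 in all 6 leave-outs. Voom called 14 of the 30, all lower, and DESeq2 called 0. The summed level of the 30 genes was 25200, 29800 and 28200 CPM in the sham hearts and 25600, 18400 and 20600 CPM in the IR hearts, so IR 1 lay within the sham range and IR 2 and IR 3 below it. Ventricular cardiomyocyte markers moved with these genes: they summed to 26200, 26200 and 27100 CPM after sham and 25800, 22800 and 22100 CPM after IR, 7 of 8 were negative (median -0.23) and 3 were lower. Their part in the metabolic differences was not tested.

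The enzymes with the smallest p-values in that list were Acacb, Acadm and Hadhb. Acacb, the acetyl-CoA carboxylase that makes malonyl-CoA at the mitochondrial surface (chromosome 5, 114146535 to 114250761), was at 375, 432 and 566 CPM after sham and 315, 234 and 325 CPM after IR (-0.65 ± 0.19, adjusted p = 0.202). Acadm, the medium-chain acyl-CoA dehydrogenase (chromosome 3, 153922357 to 153944632), was at 1260, 1650 and 1560 CPM and at 1180, 931 and 1170 CPM (-0.45 ± 0.16, adjusted p = 0.227). Hadhb, the thiolase subunit of the trifunctional protein, was at 1120, 1450 and 1510 CPM and at 1080, 933 and 1090 CPM (-0.4 ± 0.14, adjusted p = 0.23). In all 3 genes the groups did not overlap, and in Acadm and Hadhb sham 1 lay close to the highest IR hearts. Acot1, an acyl-CoA thioesterase, was at 24.6, 52.6 and 28.8 CPM and at 23.9, 7.8 and 12.6 CPM (-1.27 ± 0.68, adjusted p = 0.403), and its counts are uncertain because near-identical copies such as Acot2 share reads. Acsm5, a medium-chain acyl-CoA synthetase, was at 17.1 to 21.9 CPM after sham and 6.19 to 10 CPM after IR (-1.28 ± 0.4, adjusted p = 0.205). Ucp3, an uncoupling protein that follows fatty acid load, overlapped (87.5, 179 and 184 CPM against 110, 38.2 and 104 CPM). Cpt1b, the carnitine palmitoyltransferase of muscle, was at 0.801 to 3.48 CPM in the 6 hearts. Its level is uncertain, because reads ambiguous between overlapping genes were left out of the counts, and no level is read from it.

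The promoters of Acacb and Acadm are shown because they held the half-site AAGGTCA of oestrogen-related receptors, searched on both strands and marked in capitals, in their RefSeq window (GRCm38.p6).
Acacb, chr5:114165268-114165567 (plus strand): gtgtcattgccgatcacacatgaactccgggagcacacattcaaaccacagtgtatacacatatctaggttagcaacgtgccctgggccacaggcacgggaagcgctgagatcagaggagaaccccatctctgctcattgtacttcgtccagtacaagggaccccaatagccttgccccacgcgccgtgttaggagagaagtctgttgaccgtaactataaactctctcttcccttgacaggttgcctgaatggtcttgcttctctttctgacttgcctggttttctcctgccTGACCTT
Acadm, chr3:153944594-153944893 (minus strand): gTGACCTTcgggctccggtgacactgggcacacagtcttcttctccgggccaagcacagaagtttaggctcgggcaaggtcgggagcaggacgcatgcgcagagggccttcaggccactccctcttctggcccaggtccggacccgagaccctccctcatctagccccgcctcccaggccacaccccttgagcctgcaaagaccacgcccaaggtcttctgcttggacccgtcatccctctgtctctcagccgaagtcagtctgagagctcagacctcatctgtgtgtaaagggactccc
The match in Acadm began 249 bases before the start site, and that in Acacb lay after it, in the last bases of the window. The Acacb window lies inside the gene span given above, so its RefSeq start site is an internal one. The half-site was found in 2 of 26 fatty acid genes with a window, in 2 of 15 genes of the TCA cycle (Ogdh and Sdhd), in none of 18 genes of branched-chain amino acid breakdown and in 4.01% of the 10508 tested genes with a window. It was also in 2 of 19 cytokine genes, so it did not mark the lower lists alone. Among respiratory chain genes, whose median log2 fold change was -0.08, 6 of 58 held it.

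Regulators of these enzymes were lower as well. Of 21 transcription regulators of metabolism, 7 were lower, none was higher and the median was -0.34. The count was 2 without sham 3, 2 without IR 2 and 3 without IR 1. Rxra, the shared partner of PPAR receptors (chromosome 2, 27676440 to 27762957), was at 90.6, 105 and 113 CPM after sham and 83.4, 63.2 and 84.2 CPM after IR (-0.42 ± 0.14, adjusted p = 0.219). Esrra and Esrrb, which encode oestrogen-related receptors, overlapped slightly, with Esrra at 193 to 269 CPM and 162 to 207 CPM (-0.34 ± 0.12, adjusted p = 0.233). Ppargc1a, the coactivator PGC-1alpha, was at 93.9, 81.1 and 137 CPM and at 66.6, 66.7 and 87.1 CPM (-0.5 ± 0.21, adjusted p = 0.284). Ppara, the fatty acid receptor, was at 44.9 to 107 CPM and 37.8 to 65.9 CPM (-0.55 ± 0.28, adjusted p = 0.366). For these 4 genes sham 3 was the highest sham heart, and it was one of the 2 hearts with a length-related deviation.

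Glucose handling was mixed. Of 23 tested glycolysis and lactate genes, 2 were higher and 4 lower, with a median of -0.05. Slc2a4, which encodes the insulin-responsive glucose transporter GLUT4 (chromosome 11, 69942539 to 69948188), was at 420, 404 and 438 CPM after sham and 317, 236 and 261 CPM after IR. The sham hearts lay close together and all IR hearts lay below them (-0.63 ± 0.15, adjusted p = 0.199). Pfkm, muscle phosphofructokinase, was at 966, 1080 and 965 CPM and at 808, 637 and 670 CPM (-0.51 ± 0.13, adjusted p = 0.202). Slc16a3, the lactate exporter MCT4 (chromosome 11, 120948480 to 120960868), went the other way, with 6.83, 5.29 and 9.48 CPM after sham and 10.1, 32.2 and 24.8 CPM after IR (1.64 ± 0.44, adjusted p = 0.202). DESeq2 and voom called all 3 of these genes. Without IR 1 the list's 6 became 10. Eno1 had 5 counts over the sham hearts and 4 over the IR hearts. It was not tested because it failed the low-count filter over all 18 libraries, and no level is read from it.

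Entry of pyruvate into mitochondria and the TCA cycle followed the lower side. Of 14 pyruvate genes, 3 were lower (6 without sham 1, 5 without IR 3 and 1 without IR 2). Pdk2, a kinase that switches pyruvate dehydrogenase off, was at 367, 436 and 432 CPM after sham and 309, 218 and 276 CPM after IR (-0.62 ± 0.17, adjusted p = 0.202). Pdk4, its fasting-induced relative, varied too much to compare: 431, 1150 and 1470 CPM against 652, 393 and 1060 CPM (-0.54 ± 0.58, adjusted p = 0.708). All 18 TCA cycle genes had a negative log2 fold change (-0.49 to -0.16, median -0.28). Of these 6 were lower at an unadjusted p below 0.05, with 15 without IR 1, 2 without sham 3 and 2 without IR 2. Ogdh, the core of oxoglutarate dehydrogenase, was at 1810, 2010 and 2570 CPM and at 1420, 1380 and 1760 CPM (-0.49 ± 0.17, adjusted p = 0.219). Suclg2, a succinyl-CoA ligase subunit, was at 259 to 289 CPM and 209 to 229 CPM (-0.36 ± 0.12, adjusted p = 0.219).

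Respiratory chain genes had a share of lower members below that of all genes. Of 71 tested subunits, 65 had a negative log2 fold change, but the median was -0.08, the lowest value was -0.38 and 3 were lower (12 without IR 1, 1 without sham 2, 1 without sham 3 and 0 without IR 2). The median was 0.06 without IR 3, so its sign turned. Ndufa10, Ndufs1 and Uqcrc2 were these 3 genes. Ndufa10, a complex I subunit, was at 628, 738 and 705 CPM after sham and 597, 488 and 551 CPM after IR (-0.34 ± 0.12, adjusted p = 0.219). Ndufs5 had 0 counts in all 6 hearts. It failed the low-count filter over all 18 libraries, WT included, and no level is read from it.

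Breakdown of branched-chain amino acids gave 12 lower genes of 20, 1 that was higher, a median of -0.39 and non-overlapping lower ranges for 10. The 13 were 7 without sham 2, 8 without sham 3 and 5 without IR 2. Pcca, a propionyl-CoA carboxylase subunit (chromosome 14, 122534324 to 122891100), was at 107, 133 and 130 CPM after sham and 88.6, 68.3 and 84.6 CPM after IR (-0.61 ± 0.15, adjusted p = 0.199). Mccc1, the methylcrotonyl-CoA carboxylase subunit of leucine breakdown, was at 149 to 177 CPM and 109 to 134 CPM (-0.46 ± 0.15, adjusted p = 0.21). The member that was higher was Bcat1, the cytosolic transaminase known from non-muscle cells, at 2.62, 3.35 and 5.26 CPM and at 6.11, 12.5 and 11.2 CPM (1.41 ± 0.43, adjusted p = 0.202). Of 6 ketone body genes 2 were lower (0 without sham 3 and 0 without IR 2), among them Acat1 at 895 to 1030 CPM and 707 to 806 CPM (-0.34 ± 0.15, adjusted p = 0.295). Of 14 creatine and glycogen genes 3 were lower (5 without sham 1, sham 2, IR 1 or IR 3), with glycogen phosphorylase Pygm at 1050, 1290 and 1290 CPM and at 971, 702 and 911 CPM (-0.49 ± 0.15, adjusted p = 0.202).

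**Figure D3:**
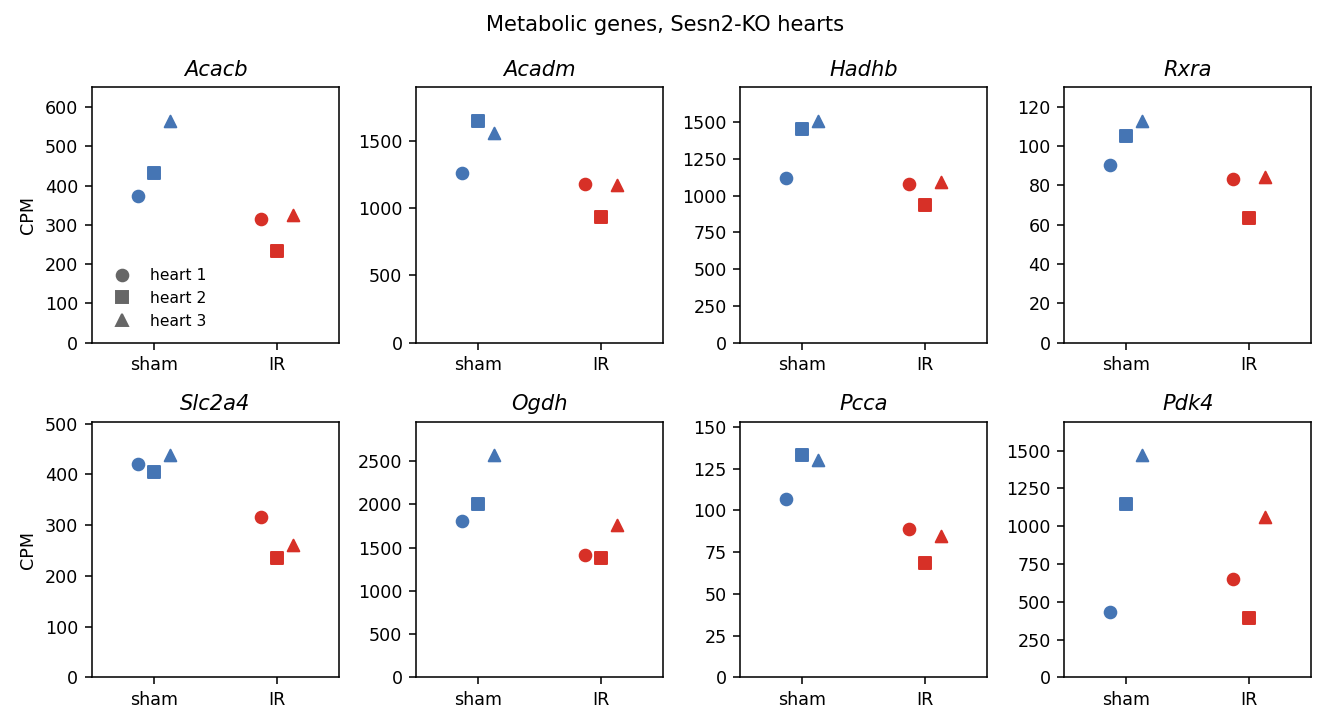
CPM of 8 metabolic genes in each Sesn2-KO heart after sham (blue) or IR (red), with each axis starting at 0. In 7 of the genes the IR hearts lay below the sham hearts. Sham 1 lay only narrowly above the highest IR heart in Acadm, Hadhb, Ogdh and Rxra. Pdk4 overlapped widely.

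**Figure D4:**
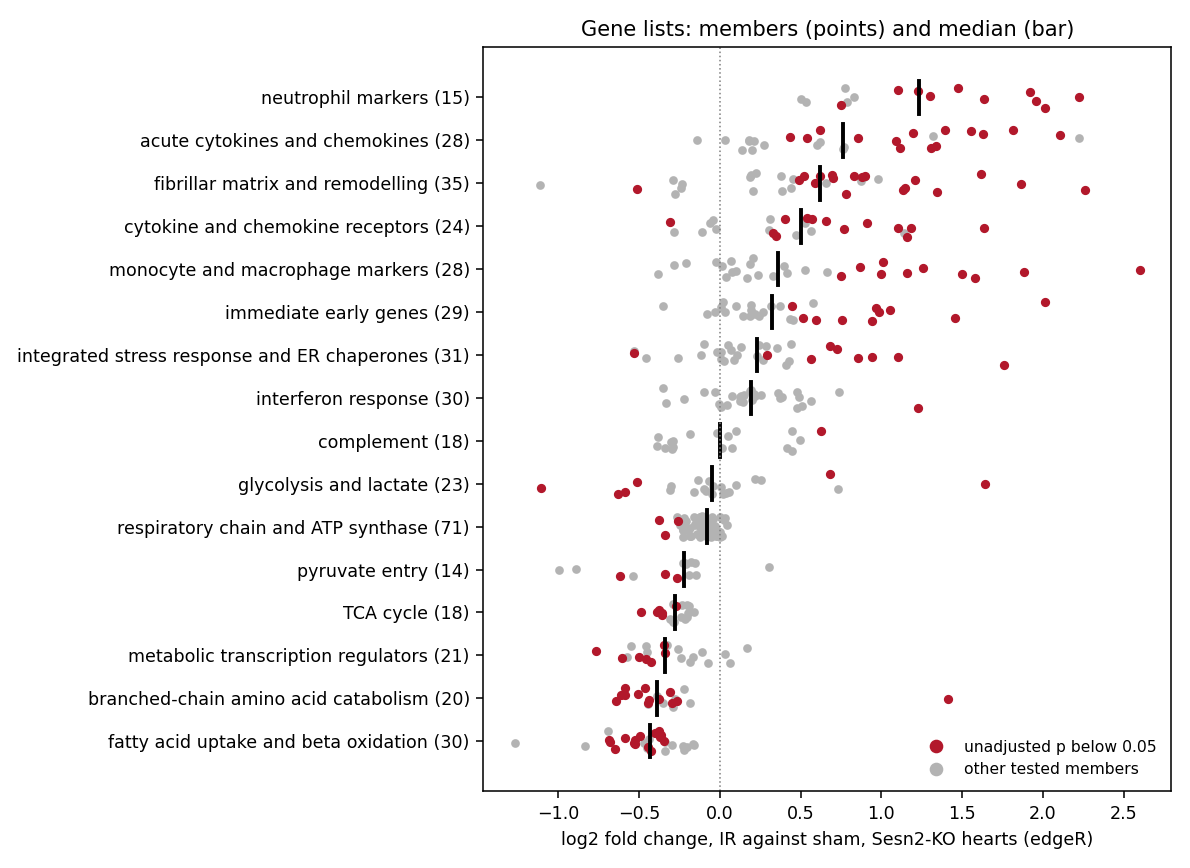
Log2 fold changes of IR against sham in Sesn2-KO hearts for the tested members of 16 gene lists, one point per gene, with the list's median as a black bar and the number of tested genes in brackets. Genes at an unadjusted p below 0.05 are red; the medians run from 1.23 in neutrophil markers to -0.43 in fatty acid genes, and no gene passed the adjusted threshold.

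Stress programmes were on the higher side with wide spread. Of 31 tested ER chaperone and integrated stress response genes, 8 were higher and 1 lower (median 0.23). The 9 were 2 without sham 2, 4 without sham 3 and 1 without IR 2. Psat1, an enzyme of serine synthesis and a target of ATF4, was at 15.1, 14.5 and 13.9 CPM after sham and 20.2, 40.4 and 32.7 CPM after IR (1.11 ± 0.27, adjusted p = 0.199). Gdf15, a stress-released hormone of the TGF-beta family, was at 10.2, 6.93 and 7.41 CPM and at 8.42, 46.7 and 27.7 CPM, with IR 1 inside the sham range (1.76 ± 0.62, adjusted p = 0.229). Of 29 immediate early genes 10 were higher (6 without sham 2, 6 without sham 3, 3 without IR 2), and Gadd45g, a growth-arrest gene, was at 27.5, 23 and 31.7 CPM and at 28.1, 127 and 69.9 CPM (1.45 ± 0.38, adjusted p = 0.202). Gdf15, Gadd45g and Ankrd2 all had IR 1 near the sham hearts and IR 2 highest. Of 23 antioxidant and metallothionein genes 4 were higher and 1 lower, and 0 without IR 2. Mt2, a metallothionein, was at 102, 194 and 181 CPM and at 264, 266 and 240 CPM (0.69 ± 0.28, adjusted p = 0.263).

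Genes of the pathway in which sestrins act differed modestly. Of 28 AMPK, mTORC1 and GATOR genes 5 were lower and none was higher (8 without IR 1, 3 without IR 2), with a median of -0.1. Tsc2, which encodes tuberin, the brake on mTORC1, was at 138, 149 and 154 CPM after sham and 118, 106 and 115 CPM after IR (-0.38 ± 0.1, adjusted p = 0.202). Mtor itself was at 77.2, 87.2 and 88.1 CPM and at 70.6, 64.3 and 72.8 CPM (-0.28 ± 0.1, adjusted p = 0.225). Of the 2 remaining sestrins, Sesn1 was at 139, 181 and 172 CPM and at 130, 88 and 110 CPM (-0.59 ± 0.19, adjusted p = 0.21). Sesn3 overlapped, with 3.27, 5.51 and 5.48 CPM and 4.81, 4.58 and 5.8 CPM (0.09 ± 0.32, adjusted p = 0.921).

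Genes known from heart muscle cells were on both sides. Of 31 contraction and ion handling genes 8 were lower and none higher (median -0.22; 3 without sham 3, 2 without IR 2). Myh6, the adult myosin heavy chain, was at 9400, 10100 and 10700 CPM after sham and 8390, 6160 and 7350 CPM after IR (-0.46 ± 0.16, adjusted p = 0.219). Kcnv2, a potassium channel subunit, was at 7.38 to 13.7 CPM and 3.46 to 5.17 CPM (-1.38 ± 0.42, adjusted p = 0.202). Cacna1g, a T-type calcium channel, was at 14.8 to 23 CPM and 7.21 to 10.8 CPM, and Adra1a, the alpha-1A adrenergic receptor, at 14.4 to 25.2 CPM and 7.81 to 11.2 CPM (-1.17 ± 0.32 and -1.11 ± 0.33, adjusted p = 0.202 for both).

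All 18 stress and foetal genes had a positive log2 fold change (median 0.94), and 6 were higher, with 3 without sham 2 and 11 without IR 1. Ankrd2, a stretch-responsive ankyrin repeat protein (chromosome 19, 42036000 to 42045110), was at 3.56, 2.53 and 4 CPM after sham and 4.51, 46.9 and 20.6 CPM after IR (2.84 ± 0.82, adjusted p = 0.202). Its log2 fold change was the highest of the named genes chosen by size, although IR 1 lay just above the sham hearts. Nppa, the atrial natriuretic peptide gene, was at 665, 217 and 316 CPM and at 996, 1680 and 772 CPM (1.53 ± 0.56, adjusted p = 0.238). Atrial markers moved in IR 1: Myl7, the atrial light chain, was at 252 CPM there and at 0.0741 to 37.3 CPM in the other 5 hearts, and Sln, sarcolipin, at 104 CPM against 0.0741 to 11 CPM. The 9 atrial markers summed to 979, 535 and 643 CPM in the sham hearts and 1910, 1880 and 1080 CPM in the IR hearts. Nppa is one of the 9 and made up most of the sum in sham 1, IR 2 and IR 3, and 996 of 1910 CPM in IR 1. The mean log2 CPM of the tested markers was 5.56, 4.5 and 4.02 after sham and 7.11, 4.26 and 5.69 after IR. By that measure IR 2 lay within the sham range. Of 8 tested, 4 were higher (7 without sham 1, 1 without sham 2 and 1 without sham 3). The part of atrial tissue in Nppa was not tested. Nppb and the slow myosin gene Myh7 varied by heart, with Myh7 at 5000, 1260 and 1500 CPM after sham and 1120, 5260 and 1960 CPM after IR (0.1 ± 0.94, adjusted p = 0.971).

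Of 27 cell cycle genes 6 were higher and 26 had a positive log2 fold change (median 0.69; 3 without IR 2). Mcm6, a subunit of the replicative helicase, was at 19.4 to 22.4 CPM after sham and 34.1 to 35.3 CPM after IR (0.77 ± 0.27, adjusted p = 0.225). Cenpf, a centromere protein outside this list, was lower, at 18.7, 17.7 and 49.5 CPM and at 7.91, 6.83 and 10.7 CPM (-1.75 ± 0.48, adjusted p = 0.202). The lowest named log2 fold change was that of Ubxn10, a UBX-domain protein of cilia, at 9.08, 11.3 and 12.4 CPM and at 3.91, 2.65 and 1.34 CPM (-2.08 ± 0.49, adjusted p = 0.199). Lrtm1, a leucine-rich membrane protein, was at 145, 156 and 249 CPM and at 88.9, 46.3 and 103 CPM, and Slc22a3, an organic cation transporter, at 8.5 to 13.4 CPM and 4.5 to 5.17 CPM (-1.21 ± 0.33, adjusted p = 0.202, and -1.18 ± 0.27, adjusted p = 0.197).

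The response of the knockout was then set beside that of WT hearts, which share no library with it. By the same test young WT hearts had 841 called genes (6.07%; 4.17% rose and 1.9% fell) and aged WT hearts had 1054 (7.61%; 5.36% rose and 2.24% fell). Of the 402 genes that rose in both WT comparisons, 387 had a positive log2 fold change in the knockout and 15 a negative one. Their median log2 fold change was 1.16 in young WT, 1.14 in aged WT and 0.56 in the knockout. Of the 125 genes that fell in both WT comparisons, 123 had a negative value in the knockout, with medians of -0.8, -0.86 and -0.4. The sets were chosen on the WT values, so the WT medians are not independent of that choice.

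Sham levels of these sets differed between genotypes. The mean log2 CPM of the 402 genes was 4.45, 4.49 and 4.59 in the Sesn2-KO sham hearts and 4.91, 5.3 and 5.14 in the Sesn2-KO IR hearts. It was 3.33 to 3.54 in young WT sham hearts and 4.42 to 5.02 in young WT IR hearts, and 4.64 to 5.12 in aged WT IR hearts. The knockout sham hearts thus lay above all WT sham hearts (3.75 at most) and below 5 of the 6 WT IR hearts, with young WT IR 1 the exception. For the 125 genes that fell in WT hearts, it was 4.84, 4.72 and 4.81 in knockout sham hearts, 4.43, 4.26 and 4.33 in knockout IR hearts and 5.4 to 5.57 in young WT sham hearts. Young WT IR hearts were at 4.45 to 4.69 and aged WT IR hearts at 4.47 to 4.58 in that set, so the knockout sham hearts lay between WT sham and WT IR hearts. Supplier and colony changed with genotype, and their part cannot be told apart from that of Sesn2. Across 10965 genes the log2 fold changes of the knockout correlated with those of young WT at r = 0.55 (rank correlation 0.58) and with those of aged WT at 0.66 (0.69), while the 2 WT responses correlated at 0.87 (0.79). Genes are not independent replicates, and the values are descriptions.

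The difference between responses was tested directly. Against young WT, 8 genes (0.0577%) passed an adjusted p below 0.05 and all 8 had a lower response in the knockout. Against aged WT there were 7 (0.0505%), also all lower, and 6 of them were among the 8. At an unadjusted p below 0.05 the lower responses were 461 genes (3.33%) and the higher ones 308 (2.22%) against young WT (5.55% in all), and 3.93% of genes differed from aged WT. Lcn2, which encodes lipocalin 2, an iron-binding protein of neutrophils and stressed tissue (chromosome 2, 32384633 to 32388252), was at 149, 618 and 348 CPM in knockout sham hearts and 582, 294 and 305 CPM in knockout IR hearts. In young WT hearts it was at 3.65 ± 1.24 CPM after sham and 239 ± 179 CPM after IR (SD, n = 3 each). The difference of the log2 responses from young WT was -5.95 ± 0.89 (adjusted p = 0.0121). Spp1, osteopontin of activated macrophages (chromosome 5, 104435118 to 104441050), was at 46.3, 87.9 and 68.6 CPM and at 194, 237 and 179 CPM in the knockout, and at 0.831 ± 0.231 and 114 ± 77.7 CPM in young WT hearts (SD, n = 3 each). Spp1 was thus higher after IR in every knockout heart, from a sham level above that of every young WT sham heart. Its difference of responses was -5.51 ± 0.81 (adjusted p = 0.0119).

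The acute-phase genes Saa3 and Serpina3n did not differ between knockout groups. Saa3, a serum amyloid made in tissue, was at 8.93, 11.3 and 5.78 CPM after sham and 8.21, 9.41 and 6.3 CPM after IR (-0.12 ± 0.42, 95% interval -1.01 to 0.76), against 0.157 ± 0.0841 and 7.64 ± 5.66 CPM in young WT hearts (SD, n = 3 each). Serpina3n, a secreted protease inhibitor (chromosome 12, 104406729 to 104414329), was at 365, 549 and 722 CPM and at 455, 406 and 552 CPM (-0.21 ± 0.31, interval -0.87 to 0.44), against 13.7 ± 1.33 and 227 ± 85.9 CPM. Its reads may be shared with other members of the Serpina3 cluster. Hmox1, haem oxygenase 1, was at 47.9, 84.1 and 81.9 CPM and at 94.7, 89.1 and 97.2 CPM in the knockout and at 15.7 ± 0.288 and 70.8 ± 15.1 CPM in young WT hearts. In all 5 of these genes the knockout sham hearts lay above the young WT sham hearts. The knockout sham mean was above the young WT IR mean for Serpina3n (545 CPM) and Lcn2 (372 against 239 CPM). It was slightly above that mean for Saa3 (8.68 against 7.64 CPM) and Hmox1 (71.3 against 70.8 CPM). Of the 5, only Spp1 had a lower knockout sham mean (67.6 CPM). The counts of 8 and 7 rested on single hearts and libraries: the first was 2 without young WT sham 1, 3 without sham 2, 2 without sham 3, 16 without young WT IR 1 and 5 without knockout IR 2, and the second was 2 without aged WT sham 1 and 13 without knockout sham 1. Both were 0 with knockout sham 3 and IR 3 left out together with the WT sham 1 and IR 3 of the group compared, which had like length-related deviations (smallest adjusted p 0.122 and 0.109). Each compared group then had 1 heart fewer, and the part of this loss in the counts of 0 was not tested.

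**Figure D5:**
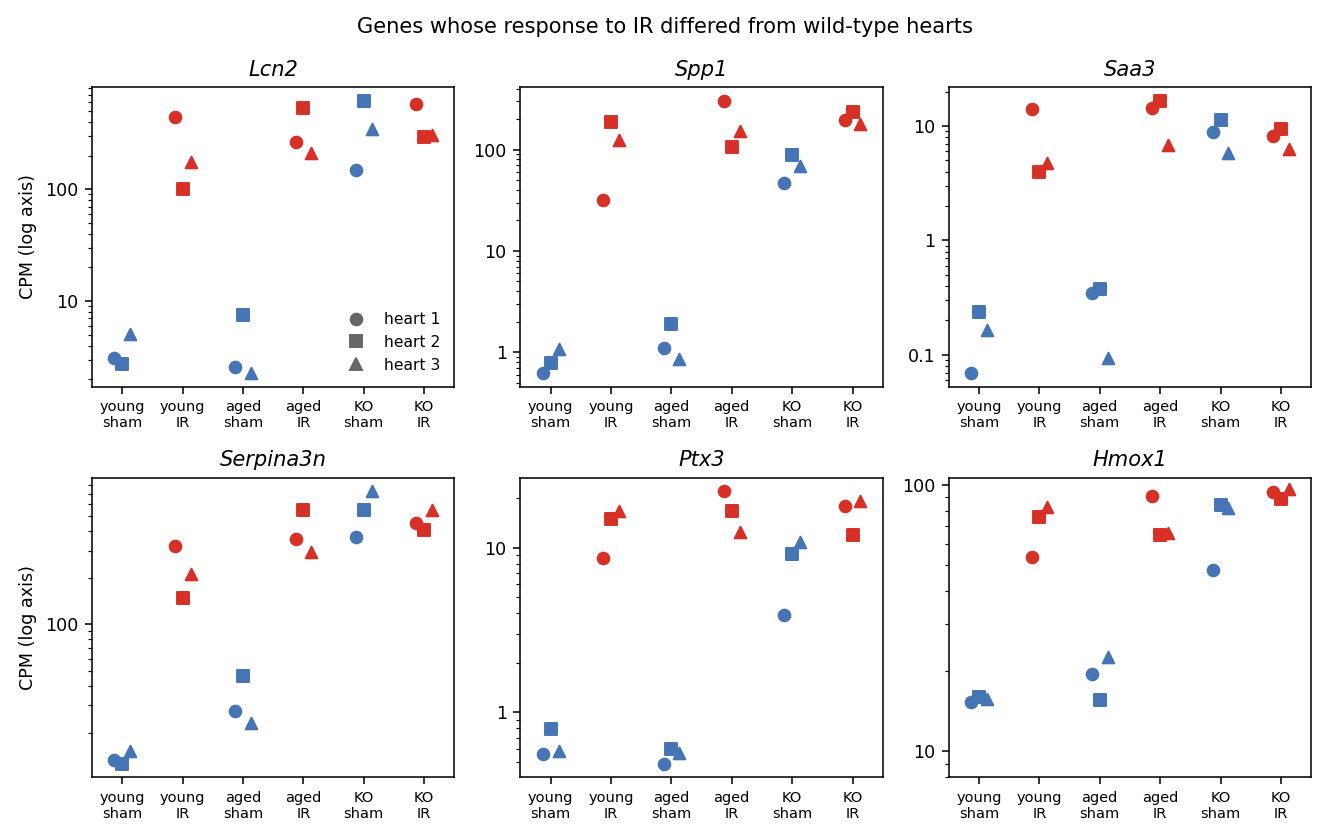
CPM on a log axis of 6 genes whose response to IR differed between Sesn2-KO and young WT hearts, in each of the 18 hearts (sham in blue, IR in red). Knockout sham hearts lie well above both groups of WT sham hearts in all 6 panels, for example at 149 to 618 CPM for Lcn2 against a young WT mean of 3.65 CPM.

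The metabolic difference did not pass the same test. The fatty acid list had a median of -0.43 in the knockout, -0.06 in young WT and 0.13 in aged WT hearts. In each WT group 1 IR library stood above the rest: the list summed to 34300 CPM in young WT IR 1, to 22400 and 22500 CPM in IR 2 and IR 3, with 26400 to 27300 CPM after sham, and to 33700 CPM in aged WT IR 2 against 26300 and 26000 CPM. Without these libraries the medians were -0.35 in young WT and -0.05 in aged WT hearts. In those fits 1 of the 30 genes had a lower response than young WT and 1 than aged WT at an unadjusted p below 0.05. The shares of all genes were 3.74% and 2.4%. With all libraries, 2 of its 30 genes had a lower response than young WT and 5 a lower response than aged WT at an unadjusted p below 0.05, against 3.33% and 2.45% of all genes, and none passed after adjustment. For Acacb the difference from young WT was -0.58 ± 0.27 (adjusted p = 0.886). Slc2a4 fell in both WT comparisons (-0.58, adjusted p = 0.0348 in young and -0.84, adjusted p = 0.00467 in aged), and had -0.63 in the knockout, a difference from young WT of -0.05 ± 0.22 (adjusted p = 1).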

How the data were processed

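Polyadenylated RNA of left ventricle was sequenced from 18 mouse hearts with a stranded paired-end kit, per the labels' protocols. The authors deposited whole-number counts of reads per gene symbol; FastQC, Bowtie2, TopHat2, HTSeq, SAMtools and the build mm10 are named per the submitters' processing notes. Tool versions, the annotation and the strand option were not stated there. Rows for reads without a feature or with an ambiguous one were left out. All 18 libraries (9404531 to 14458047 counts) were fitted in 6 groups with edgeR 4.0.16 (R 4.3.3), with TMM scaling, filterByExpr and the robust quasi-likelihood test, and p-values were adjusted by Benjamini-Hochberg over 13859 of 24421 genes. DESeq2 1.42.0 and limma 3.58.1 were alternatives. Transcript lengths came from GENCODE M21 (23334 symbols found). On simulated counts of 13754 genes edgeR recovered 60% of 2-fold and 92% of 4-fold changes, with 10 false calls. Those counts were drawn independently, without length-related deviations, so the recovered shares do not carry over to the real hearts. Named genes were the 10 highest and 10 lowest log2 fold changes among genes averaging 5 CPM or more with non-overlapping groups, up to 3 members of each list by smallest p, a panel, the 5 genes with the largest SD in each knockout group, and up to 6 called differences of responses in each direction. Clone-named genes were left out of the naming. Some genes under this rule are not reported here. Members and lists were chosen with earlier results of these data known. The labels give each library only a number, so the tests speak of differences among these samples, which may be partly technical.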

Additional observations from a re-analysis of the deposited data

Results flagged for a closer look

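The responses below differed between genotypes in the interaction test of edgeR's quasi-likelihood fit (adjusted p below 0.05 over 13859 genes). Values are the log2 response to IR in the knockout minus that in WT hearts, with 3 hearts in each group. Against young WT the differences were -4.26 for Serpina3n, -3.32 for Mmp3, -3.35 for Clec4d, -5.67 for Saa3, -5.51 for Spp1, -5.95 for Lcn2, -3.33 for Ptx3 and -1.78 for Hmox1. Against aged WT they were -3.84 for Serpina3n, -2.65 for Mmp3, -5.54 for Saa3, -5.57 for Spp1, -3.9 for Ptx3, -6.26 for Lcn2 and -3.29 for Serpina3i. Mmp3, a stromelysin of the matrix, averaged 97.2 CPM after sham and 133 CPM after IR in the knockout, and 4.93 and 67.2 CPM in young WT hearts. Clec4d, a C-type lectin of myeloid cells, averaged 8.24 and 13.8 CPM in the knockout and 0.564 and 9.75 CPM in young WT hearts.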

How the results depend on the processing

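The count of 0 genes between IR and sham in the knockout became 129 with DESeq2 and 1235 with voom, and was 0 to 1 with each heart left out in turn. It stayed at 0 with upper quartile scaling or DESeq2's size factors, without the low-count filter, with the compared groups alone, a length covariate and the length-tilted libraries (those with length-related deviations) left out. The unadjusted count of 2037 became 3908 with voom, 3291 with a length covariate and 1141 without the tilted libraries, and ranged from 937 to 2912 with single hearts left out. The 8 differences from young WT became 30 with DESeq2 and 0 without the tilted libraries, and 2 to 16 with single libraries left out. The 7 from aged WT became 30 with DESeq2, 23 with voom, 0 without the tilted libraries and 2 to 13 with single libraries left out. Leaving out the tilted libraries also made every compared group smaller.

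With the replicate number as a block the counts were 0, 2086 at an unadjusted p below 0.05, 8 and 8. Same-numbered sham and IR deviations correlated at 0.271, -0.218 and 0.857, so the numbers were not taken to pair the hearts.

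Leave-outs spanned -0.23 to 1.46 for Sesn2, -0.12 to 0.21 for Sesn3, -0.31 to 0.66 for Lcn2, -0.75 to 1.01 for Myh7, -2.12 to 1.41 for Chrm2, -2.28 to 1.05 for Zbtb16, -2.02 to 0.89 for Ppp1r12b, -0.35 to 0.11 for Saa3 and -0.43 to 0.04 for Serpina3n. Log2 fold changes that turned sign were, with voom, Sln -0.18, Myl7 -0.45 and Chrm2 0.23. Sign turned without sham 3 for Chrm2, Zbtb16, Ppp1r12b, Serpina3n and Myh7. The cause was not tested. The alternatives for the unadjusted count and the leave-outs of WT libraries for 3 lists were added after seeing the data. Low counts limit Sesn2, Saa3 and A2m.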
